A study of Mus musculus with 64 samples.

Results

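The replication-dependent histone genes were taken as the 67 protein-coding genes of the deposited count table whose GENCODE M21 symbols begin with Hist1h, Hist2h, Hist3h or Hist4h, out of 55335 genes in all. They are 6 H1, 18 H2A, 18 H2B, 12 H3 and 13 H4 genes. The Hist1 cluster on chromosome 13 holds 54 of them, the Hist2 cluster on chromosome 3 holds 10, the Hist3 pair lies on chromosome 11 and Hist4h4 stands alone on chromosome 6. The study sequenced RNA from V6.5 mouse embryonic stem cells of 13 lines. In 12 of them, named RPB1 to RPB12, a subunit of RNA polymerase II carries a degron, a tag through which the plant F-box protein OsTIR1 and auxin (indole-3-acetic acid, IAA) direct the tagged protein to degradation. The thirteenth line is wild type (WT). All cells received doxycycline for 12 h to induce OsTIR1, at 2 µg/ml per the sample labels and 1 µg/ml per the series' design text, and then 500 µM IAA for 12 h or no IAA, with 2 libraries in each of these 26 groups. RPB1, RPB3 and RPB6 also had 2 libraries each after 1 h and 0 h of IAA. The medium of all groups contained CHIR99021 and PD0325901, and Drosophila S2 cells were added at 10%. Whether each line is 1 clone, whether WT carries OsTIR1, and whether paired libraries came from separate cultures is not stated in the labels, and the p-values below speak only for the spread between the libraries at hand. The degrons act on protein, so the mRNA level of a tagged subunit checks nothing about its loss.

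Replication-dependent histone genes supply the core histones H2A, H2B, H3 and H4, which form the nucleosome, and the linker histone H1, which binds the DNA between nucleosomes, while the genome is copied in S phase. The genes have no introns, and most of their mRNAs end in a conserved stem-loop rather than a poly(A) tail. Slbp, the stem-loop binding protein, holds this structure, and a complex that contains the U7 small nuclear RNA cuts the transcript just behind it. Transcription of the gene clusters depends on the cofactor Npat. Some of the genes can also give longer or spliced transcripts that carry a poly(A) tail, mostly described in differentiated cells. The 12 h libraries were made from poly(A) RNA per the labels, and no library type is given for the 0 h and 1 h libraries, so the values below describe the histone RNA that such libraries captured.

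The stem-loop is shown first because it sets these mRNAs apart. It was searched in the GENCODE M21 transcripts (mm10) as a 6-base inverted repeat around a 4-base loop within 100 bases after the stop codon. The models of 52 members reached far enough, and 46 held one, starting 22 to 59 bases after the stop codon (median 32). They took 8 forms, of which 1 example each is given as DNA, 5′ to 3′, with the 2 arms of the stem in capitals and the loop in lower case.
Hist3h2ba: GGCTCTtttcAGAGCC
Hist4h4: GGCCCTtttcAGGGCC
Hist1h3c: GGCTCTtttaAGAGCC
Hist1h4i: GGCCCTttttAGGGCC
Hist1h4b: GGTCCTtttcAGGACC
Hist1h4a: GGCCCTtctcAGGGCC
Hist1h3g: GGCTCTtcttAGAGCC
Hist2h2ac: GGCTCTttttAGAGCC
The form of Hist3h2ba, at chr11:58949349-58949364 on the plus strand, occurred in 26 members, among them Hist1h1c and Hist1h2ae. That of Hist4h4 (chr6:136803998-136804013, minus strand) occurred in 7, that of Hist1h3c (chr13:23745047-23745062, minus) in 6, and those of Hist1h4i (chr13:22040966-22040981, minus) and Hist1h4b (chr13:23757366-23757381, plus) in 2 each. The forms of Hist1h4a (chr13:23760800-23760815, minus), Hist1h3g (chr13:23535889-23535904, plus) and Hist2h2ac (chr3:96220418-96220433, minus) occurred in 1 member each. Hist1h2bc and Hist2h2be, the H2B genes to which several of the results below refer, held none within 100 bases, and their annotated 3′ UTRs run to 742 and 2192 bases. A stem-loop does not exclude a long model: that of Hist4h4 has 2515 bases, that of Hist1h1d 4931 and that of Hist3h2a 1700. The poly(A) signal AATAAA lay in the last 40 bases of at least 1 transcript of 14 members, and in 39.3% of 58797 coding transcripts.

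The members also share promoter elements. RefSeq promoter windows (GRCm38.p6, 250 bases before to 50 after the start) matched 61 members with 62 windows, and were searched on both strands for TATAAA (the TATA box), CCAAT (the box bound by NF-Y) and ATTTGCAT (the octamer bound by Oct factors), none of which contains another. TATAAA occurred in 56.5% of the members' windows and in 13.6% of all 32851 windows. CCAAT occurred in 85.5% against 37.4%, in all H1, H2A, H2B and H3 windows but in 25% of the H4 windows. ATTTGCAT occurred in 22.6% against 1.74%, in 41.2% of the windows of H2A and of H2B and in none of the other classes. An H3 and an H2A window are printed because these genes differ in their elements and come back in the results, with each match on either strand in capitals, a match on the reverse strand being spelled as its reverse complement.
Hist1h3c: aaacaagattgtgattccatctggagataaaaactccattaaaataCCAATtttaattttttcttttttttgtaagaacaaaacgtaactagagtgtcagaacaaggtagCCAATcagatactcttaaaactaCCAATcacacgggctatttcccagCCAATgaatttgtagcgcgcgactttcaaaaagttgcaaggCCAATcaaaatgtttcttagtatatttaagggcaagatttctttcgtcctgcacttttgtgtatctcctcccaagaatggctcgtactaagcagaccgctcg
Hist1h2ae: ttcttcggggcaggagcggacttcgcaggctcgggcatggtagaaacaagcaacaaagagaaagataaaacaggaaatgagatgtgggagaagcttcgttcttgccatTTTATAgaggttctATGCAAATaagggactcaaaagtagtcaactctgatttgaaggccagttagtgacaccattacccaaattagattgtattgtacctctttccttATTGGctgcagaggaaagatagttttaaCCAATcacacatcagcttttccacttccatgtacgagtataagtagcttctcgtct
The window of Hist1h3c (chr13:23745472-23745771, minus strand) held 5 CCAAT boxes, and that of Hist1h2ae (chr13:23571171-23571470, minus strand) held 1 TATAAA, 2 CCAAT and 1 ATTTGCAT. A match says only that these letters stand in the window.

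Histone reads were few. Total counts were 3399838 to 7164928 per 12 h library and 8598431 to 13281252 per 0 h or 1 h library, of which the 67 members together held 106 to 636 and 241 to 680, or 0.00243 to 0.0156% of all counts. Levels are given as CPM on the TMM-scaled library size, so that 1 count was worth 0.475 and 0.465 CPM in the RPB2 IAA libraries, 0.331 and 0.337 CPM in the RPB6 IAA libraries, and about 0.2 CPM in most other 12 h libraries. After the filter on low counts, 26 members remained among the 17928 genes tested at 12 h (3 H1, 4 H2A, 6 H2B, 5 H3 and 8 H4) and 13 among the 15658 tested at 1 h. At 12 h the other 41 enter only through the class sums, 2 of them with no count at all. One of them, Hist1h3e, averaged 0.807 CPM over the IAA libraries and 0.701 CPM over the untreated ones. The sources used here give neither the handling of reads that match several copies nor that of strand, and 24 members overlap another gene, so the division of reads among single members is uncertain. Markers of embryonic stem cells summed to 1910 to 6230 CPM per library, those of feeder fibroblasts to 2.09 to 21.1 CPM, and those of primitive endoderm and trophectoderm to 1.32 to 21.5 and 16.7 to 174 CPM.

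Per kb of exon, over the 26 untreated 12 h libraries, the H2B gene Hist1h2bc was the most abundant member at 8.56 CPM per kb, followed by the H4 gene Hist1h4i at 6.25 CPM per kb. Below them came Hist1h3c at 3.01, Hist1h1c at 2.71, Hist1h2ae at 2.67, Hist1h2bj at 2.53, Hist1h3h at 2.37, Hist1h2bk at 1.85 and Hist1h3g at 1.57 CPM per kb. The order among Hist1h3c, Hist1h1c and Hist1h2ae is not resolved, since single untreated libraries ran from 0.703 to 3.72 CPM for Hist1h3c, from 1.06 to 9.60 CPM for Hist1h1c and from 0.577 to 4.29 CPM for Hist1h2ae. When levels were set per coding kb instead, 8 of the highest 10 members were shared. By class, H2B held 36.2% of the 414 member counts of the untreated WT libraries, H3 21.7%, H4 17.6%, H2A 12.3% and H1 12.1%.

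After 12 h of IAA, the summed level of the 67 members was higher than in untreated cells in 10 of the 12 degron lines, and in none of these 10 did the IAA and untreated libraries overlap, although on mitochondrial counts in place of TMM the RPB2 sum was lower with IAA (log2 ratio −0.66). RPB6 reached 149 and 165 CPM with IAA, against 29.6 and 37.0 CPM untreated, a log2 ratio of means of 2.24. RPB8 stood at 170 and 170 CPM with IAA, against 46.3 and 39.9 CPM untreated (1.98), and RPB5 at 121 and 125 CPM, against 31.4 and 41.7 CPM (1.75). On TMM scaling these 3 lines thus held about 3 to 5 times their untreated sum. Scaled to mitochondrial counts, their log2 ratios were smaller, at 0.27 in RPB6, 0.46 in RPB8 and 1.18 in RPB5. RPB2 had 130 and 148 CPM with IAA, against 39.6 and 56.0 CPM untreated (1.54), RPB1 105 and 108 CPM, against 39.2 and 35.5 CPM (1.51), and RPB3 87.0 and 97.2 CPM, against 45.9 and 42.3 CPM (1.06). The ratios were smaller in RPB7 (0.61), RPB9 (0.45), RPB11 (0.36) and RPB10 (0.29), and without the 8 members with known tailed transcripts they were −0.23 in RPB7 and −0.11 in RPB9. RPB4 had 32.3 and 39.0 CPM with IAA, against 46.5 and 46.4 CPM untreated (−0.38), RPB12 43.9 and 47.6 CPM, against 53.3 and 47.8 CPM (−0.14), and WT 23.3 and 21.8 CPM, against 41.6 and 31.8 CPM (−0.70). In RPB4, RPB12 and WT the sum was thus lower with IAA than without. In bulk RNA, fewer cells of a kind and less RNA per cell cannot be told apart.

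**Figure D1:**
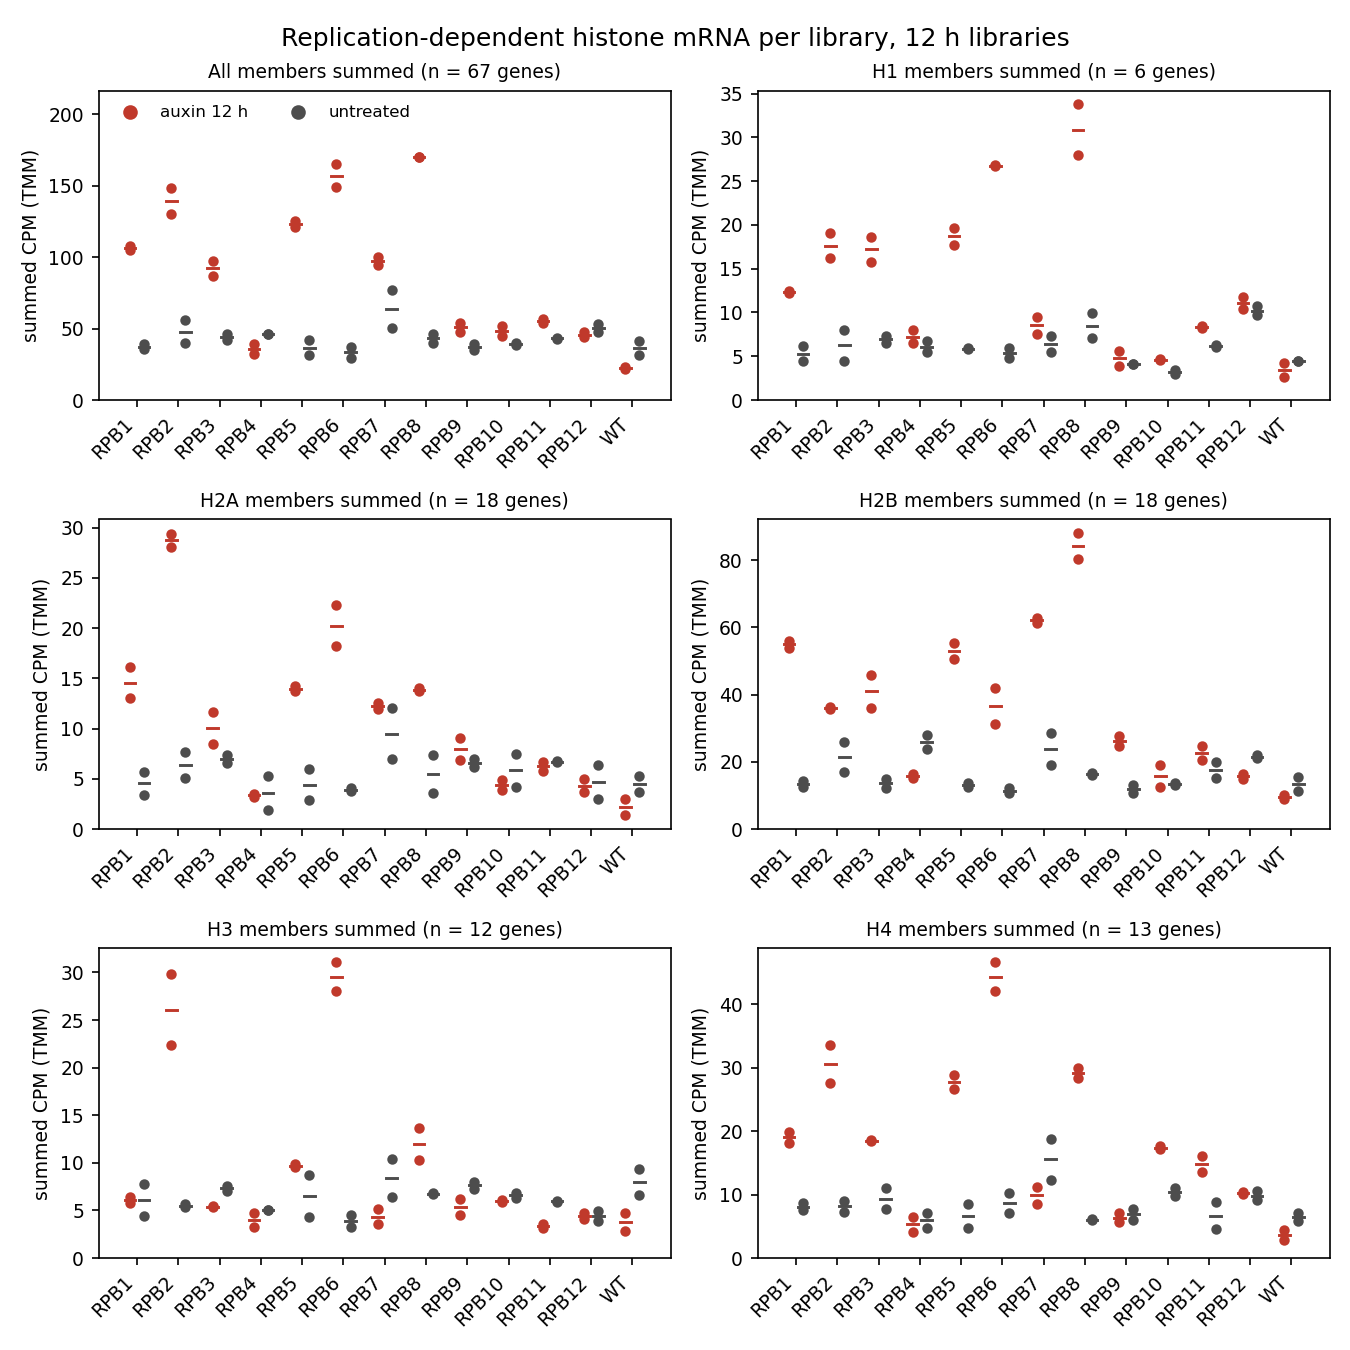
Summed CPM of the members of each class (H1, H2A, H2B, H3, H4) in every 12 h library, with IAA left of untreated in each line and WT last; points are libraries and bars are means of 2. The IAA libraries of RPB2 and RPB6 stand above their untreated libraries in every class on this scale, though on mitochondrial counts 4 RPB2 classes (H1, H2A, H2B, H4) and the RPB6 H2B sum turn lower, whereas in RPB1 the H3 sums overlap and the H2B sums do not.

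Member by member, edgeR's quasi-likelihood test with Benjamini-Hochberg adjustment over all genes (threshold 0.05) placed many histone genes above their untreated level, and the share has to be read against the share of all genes so placed. In RPB6, 23 of the 26 tested members rose and none fell, where 27.3% of all genes rose and 33.4% fell. In RPB2, 15 rose and none fell (27.9% and 34.0% of all genes). These directions hold relative to other genes of the same libraries: on total counts 17 rose and none fell in RPB6, and 9 rose and 1 fell in RPB2, and on mitochondrial counts 3 rose and 1 fell in RPB6, and none rose and 3 fell in RPB2. In RPB5, 14 rose and none fell (31.0% and 28.1%), in RPB8, 13 rose and none fell (31.5% and 30.2%), and in RPB1, 11 rose and none fell (35.8% and 30.5%). In RPB3, 9 rose and 3 fell, with 24.4% and 23.3% of all genes, and in RPB7, 5 rose and 3 fell, with 20.2% and 21.1%. In RPB9, RPB10 and RPB11, 5 rose in each and none fell, where 16.8%, 18.2% and 10.6% of all genes rose and 18.0%, 21.2% and 13.1% fell. Some members passed the filter on low counts only through an IAA group in which they are high. Examples are Hist1h4a, Hist1h4d, Hist1h3a and Hist1h3d in RPB6 and Hist1h2ag in RPB2. The member counts above and the medians below thus describe the tested members and support nothing. No member passed in RPB4, RPB12 or WT, where 2.08%, 4.79% and 1.65% of all genes were called in either direction, while 3, 0 and 2 members had an unadjusted p under 0.05. DESeq2 called 0 members in each of these 3 comparisons.

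The median log2 fold change of the 26 tested members lay above that of all genes by the widest margin in RPB6 (2.54 against −0.13), RPB2 (2.02 against −0.19), RPB8 (1.77 against 0.04) and RPB5 (1.75 against 0.08). It was 0.72 against 0.09 in RPB1 and 0.66 against 0.06 in RPB3. Elsewhere it was −0.52 in RPB7, 0.06 in RPB9, 0.11 in RPB10, 0.12 in RPB11, −0.32 in RPB4, −0.03 in RPB12 and −0.76 in WT, each beside an all-gene median of 0. Of the 112 calls over the 13 lines and the 1 h comparisons, 75 held when any 1 of the 4 libraries of their comparison was left out. RPB10's 5 calls became 2 without untreated replicate 1, 3 without untreated replicate 2 and 1 without IAA replicate 2. RPB11's 5 became 3 without untreated replicate 2 or IAA replicate 1. The 3 members that fell in RPB3 became 0 without untreated replicate 1 and 1 without IAA replicate 1 or 2, and the 3 that fell in RPB7 became 5 without untreated replicate 1, 0 without untreated replicate 2 and 1 without IAA replicate 2. DESeq2 placed 1 member lower in RPB3 and 2 in RPB7. In a fit of a line's own libraries 4 members rose and 2 fell in RPB10, and without a filter 4 rose and 1 fell in RPB11. Where none fell, 1 did without IAA replicate 2 in RPB1 and RPB10, without untreated replicate 1 in RPB2 and RPB5, and without untreated replicate 2 in RPB11.

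**Figure D2:**
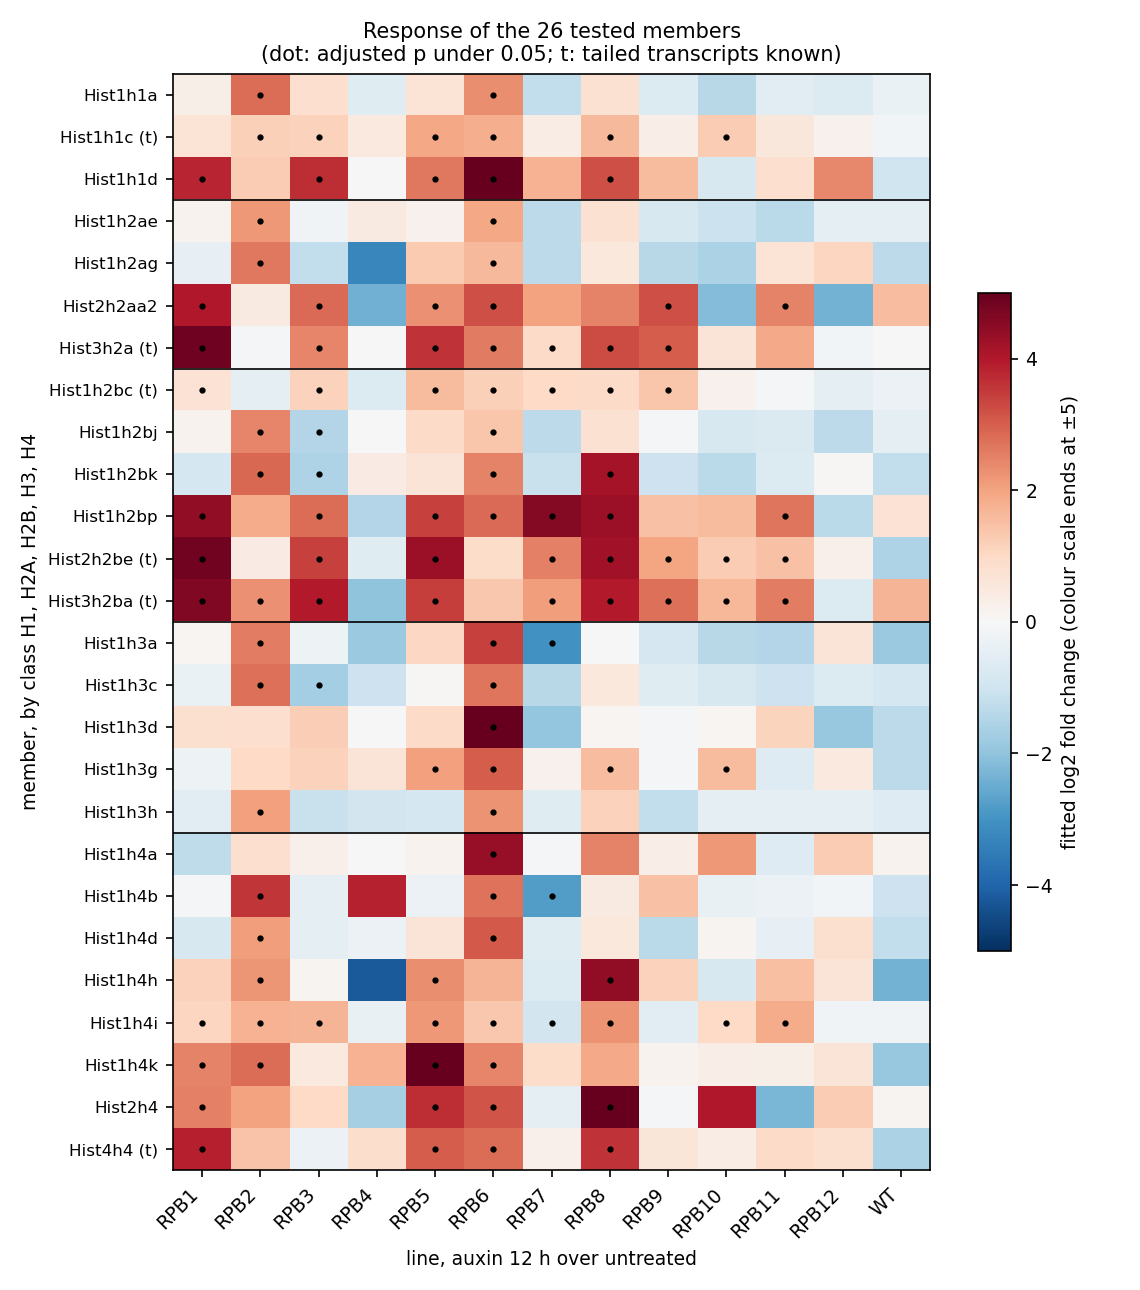
Log2 fold change (12 h of IAA over untreated, colour scale) of the 26 tested members, ordered by class, in the 12 degron lines and WT; a dot marks an adjusted p under 0.05 and t marks members with known tailed transcripts. RPB6 has 23 dots and RPB4, RPB12 and WT have none; the colour of a member with no count in 1 group depends on the fit and is no measure of size.

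The H1 genes, which encode the linker histones, rose in most lines with a raised sum. Their summed level in RPB6 was 26.8 and 26.7 CPM with IAA, against 4.84 and 5.92 CPM untreated, in RPB8 28.0 and 33.8 CPM, against 9.96 and 7.04 CPM, and in WT 4.19 and 2.68 CPM, against 4.42 and 4.44 CPM. Of the 3 tested, 3 rose in RPB6, 2 in each of RPB2, RPB3, RPB5 and RPB8, and 1 in each of RPB1 and RPB10. For this tally and those of the other classes, the all-gene shares are those given with the member calls. Hist1h1c (chr13:23738808-23740367, plus strand), which encodes H1.2 and is among the members with known tailed transcripts, was the most abundant. It had 12.8 and 12.7 CPM in RPB5 with IAA, against 3.08 and 3.56 CPM untreated (log2 fold change 1.92 ± 0.28 SE, edgeR adjusted p = 7.2e-08), and 18.3 and 22.5 CPM in RPB8, against 6.99 and 5.96 CPM (1.64 ± 0.24, adjusted p = 6.46e-08). The groups do not overlap in either line. In RPB6 it had 11.9 and 18.2 CPM with IAA, against 3.58 and 4.90 CPM untreated (1.82 ± 0.27, edgeR adjusted p = 1.28e-07). In RPB1 it had 5.81 and 5.24 CPM, against 4.21 and 2.52 CPM, and did not pass (edgeR adjusted p = 0.0539). WT stayed low, at 1.20 and 2.06 CPM with IAA, against 1.42 and 2.13 CPM untreated.

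Hist1h1d (chr13:23553262-23560686, plus strand), which encodes H1.3, rose in 5 lines, from few or no counts in untreated cells. It had 23 and 11 counts in RPB6 with IAA, against 1 and 0 untreated, a ratio of 65.3 with a 95% counting interval of 11.0 to 2.66e+03 (edgeR adjusted p = 8.03e-08). RPB1 gave 21 and 28 counts, against 2 and 1, a ratio of 15.1 (interval 4.87 to 75.8), and RPB3 gave 25 and 21, against 3 and 0, a ratio of 14.0 (4.50 to 70.3). Intervals and limits of this kind cover counting error only, since reads without molecular identifiers are not independent molecules. Hist1h1d also rose in RPB5 (log2 fold change 2.64) and RPB8 (3.23), with edgeR adjusted p of 0.000152 and 1.44e-06. Its annotated 3′ UTR of 4931 bases is the longest among the members, and reads anywhere in that span count for it. Hist1h1a, which encodes H1.1, rose in RPB2 to 3.33 and 2.80 CPM with IAA, against 0.392 and 0.443 CPM untreated (edgeR adjusted p = 0.00138), and in RPB6 to 3.97 and 2.36 CPM, against 0.717 and 0.507 CPM (adjusted p = 0.00169). The RPB6 call did not hold without IAA replicate 1 (adjusted p = 0.0656), and Hist1h1c's call in RPB10 (log2 fold change 1.28) did not without untreated replicate 1 (0.0905) or IAA replicate 2 (0.163). Hist1h1b, which encodes H1.5, had too few counts to be tested at 12 h.

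The H2A genes as a sum were highest in RPB2, at 28.1 and 29.4 CPM with IAA, against 5.09 and 7.68 CPM untreated (log2 ratio 2.17, but −0.03 on mitochondrial counts), with RPB6 at 18.2 and 22.3 CPM, against 3.76 and 4.06 CPM, and WT at 2.99 and 1.44 CPM, against 5.31 and 3.73 CPM. Of the 4 tested, 4 rose in RPB6, 2 in each of RPB1, RPB2, RPB3, RPB5 and RPB9, and 1 in each of RPB7, RPB8 and RPB11. Different members made up these calls. Those in RPB2 include Hist1h2ag, which passed the filter on low counts only through RPB2 with IAA. Hist1h2ae (chr13:23570517-23571220, minus strand), the most abundant H2A gene, rose in RPB2 to 7.61 and 10.3 CPM with IAA, against 0.588 and 3.10 CPM untreated (log2 fold change 2.15 ± 0.50 SE, edgeR adjusted p = 0.000222). It also rose in RPB6, to 3.97 and 5.40 CPM, against 1.07 and 1.35 CPM (1.92 ± 0.60, edgeR adjusted p = 0.0047; 0.0715 without IAA replicate 2), and passed in no other line. Hist1h2ag had 7.13 and 5.59 CPM in RPB2 with IAA, against 1.18 and 0.887 CPM untreated (2.62 ± 0.53, edgeR adjusted p = 2.91e-05). Since that IAA group alone let Hist1h2ag pass the filter, its RPB2 p-value is a description only. Its call in RPB6 (log2 fold change 1.61, edgeR adjusted p = 0.04) did not hold without untreated replicate 2 (0.182), IAA replicate 1 (0.0916) or IAA replicate 2 (0.175). Hist1h2ag was not called in RPB1, RPB5 or RPB8.

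Hist3h2a (chr11:58954685-58956830, plus strand), the H2A gene of the Hist3 pair, had another pattern. In RPB1 it had 16 and 22 counts with IAA, against 1 and 0 untreated, a ratio of 35.1 with a counting interval of 5.94 to 1.42e+03 (edgeR adjusted p = 1.15e-06). RPB5 gave a ratio of 13.8 (3.43 to 121), and in RPB3 it rose to 1.72 and 2.26 CPM, against 0.353 and 0.343 CPM (edgeR adjusted p = 0.00241). All 4 WT libraries had 0 counts of it, which allows up to 3 counts over a group. In RPB7 it was already present without IAA, with 4.58 and 5.04 CPM with IAA and 2.14 and 2.96 CPM untreated (edgeR adjusted p = 0.0294), a call lost without untreated replicate 1 (0.216), IAA replicate 1 (0.0602) or IAA replicate 2 (0.145). Hist3h2a overlaps Gm44313 and Trim17, 1 of them on its own strand, so part of its reads may belong to a neighbour. Hist2h2aa1 and Hist1h2ac, H2A genes with known tailed transcripts, were not among the members tested at 12 h. Hist2h2aa2, a near-identical copy of Hist2h2aa1 chosen after its values were seen, had 11 and 10 counts in RPB1 with IAA, against 0 and 1 untreated, a ratio of 19.4 (3.12 to 803), and reads of the 2 copies may not be separable.

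Among the 5 classes, the H2B genes had the highest sum with IAA in every line except RPB6 and RPB10, where H4 had it. RPB8 had 88.1 and 80.4 CPM with IAA, against 16.1 and 16.6 CPM untreated, RPB7 61.4 and 62.7 CPM, against 19.1 and 28.5 CPM, and WT 8.98 and 10.1 CPM, against 15.4 and 11.2 CPM. Their share of the member counts was 64.2% in RPB7 with IAA, against 37.5% untreated, and 51.4% in RPB1 with IAA, against 35.6% untreated, whereas in RPB2 it was 25.9% with IAA, against 45.3% untreated, and in RPB6 23.2%, against 34.1%. In RPB2 the log2 ratio of the H2B sum was 0.74, but −0.11 on total and −1.46 on mitochondrial counts, and in RPB6 it was 1.68, but −0.28 on mitochondrial counts. The class thus took a larger part of the histone reads in some degron lines with IAA and a smaller part in others. Of the 6 tested, 5 rose in RPB8, 4 in each of RPB1, RPB3, RPB5, RPB6 and RPB7, 3 in each of RPB2, RPB9 and RPB11, and 2 in RPB10, and 2 fell in RPB3.

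Hist2h2be (chr3:96221119-96223738, plus strand), a gene with a known tailed transcript, led the class. It had 22.9 and 19.5 CPM in RPB1 with IAA, against 1.00 and 0.420 CPM untreated, or 118 and 104 counts against 5 and 2 (log2 fold change 4.84 ± 0.34 SE, edgeR adjusted p = 1.43e-16). RPB8 had 32.6 and 29.6 CPM, against 1.75 and 1.62 CPM (4.19 ± 0.28, adjusted p = 1.06e-17), and RPB5 8.55 and 9.65 CPM, against 0.821 and 0.162 CPM (4.26 ± 0.43, edgeR adjusted p = 9.95e-12). The groups are far apart in all 3 lines. It rose to 10.1 and 10.5 CPM in RPB3, against 0.707 and 1.20 CPM (3.40 ± 0.34, edgeR adjusted p = 2.75e-11), and to 11.9 and 11.4 CPM in RPB7, against 2.28 and 1.74 CPM (2.50 ± 0.28, adjusted p = 4.21e-10). Smaller rises passed in RPB9 (1.96), RPB11 (1.45) and RPB10 (1.28), with edgeR adjusted p of 0.000127, 0.00423 and 0.0044, of which the RPB11 call did not hold without untreated replicate 2 (0.237) nor the RPB10 call without IAA replicate 2 (0.0873). RPB2 and RPB6, whose other members moved most, did not pass here. RPB2 had 1.90 and 2.33 CPM with IAA, against 1.57 and 1.63 CPM untreated (edgeR adjusted p = 0.574), and RPB6 0.662 and 2.70 CPM, against 0.717 and 1.01 CPM, with overlapping groups (adjusted p = 0.207). WT had 0.598 and 0.412 CPM with IAA, against 1.59 and 1.42 CPM untreated (edgeR adjusted p = 0.268).

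Hist3h2ba (chr11:58948920-58949533, plus strand), the H2B gene of the Hist3 pair, rose in 9 lines. It had 10.5 and 11.0 CPM in RPB1 with IAA, against 0.400 and 0.420 CPM untreated (log2 fold change 4.64 ± 0.44 SE, edgeR adjusted p = 9.93e-13), 7.65 and 9.38 CPM in RPB3, against 0.883 and 0.171 CPM (3.97 ± 0.41, adjusted p = 3.82e-11), and 13.2 and 15.0 CPM in RPB8, against 1.05 and 0.722 CPM (3.95, adjusted p = 3.97e-13). No group overlaps its counterpart in these lines. RPB7 rose to 12.8 and 14.4 CPM, against 2.41 and 4.18 CPM (2.09, edgeR adjusted p = 2.98e-09), while RPB6 had 1.66 and 2.36 CPM, against 1.25 and 0.338 CPM (adjusted p = 0.0527). In RPB2 its rise (2.30, edgeR adjusted p = 0.00224) did not hold without IAA replicate 1 (0.104), and in RPB10 (1.66, adjusted p = 0.0207) it did not without untreated replicate 1 (0.06), untreated replicate 2 (0.112) or IAA replicate 2 (0.178). WT had 0.997 and 0.824 CPM with IAA, against 0.354 and 0.178 CPM untreated, and did not pass (edgeR adjusted p = 0.377).

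Hist1h2bc (chr13:23684199-23692908, plus strand), the most abundant member, moved less. It had 20.1 and 23.8 CPM in RPB5 with IAA, against 8.42 and 6.31 CPM untreated (log2 fold change 1.59 ± 0.23 SE, edgeR adjusted p = 1.03e-07), 29.2 and 29.0 CPM in RPB7, against 11.1 and 18.4 CPM (1.00 ± 0.19, adjusted p = 2.32e-05), and 12.7 and 9.63 CPM in RPB9, against 5.14 and 3.30 CPM (1.39, adjusted p = 6.33e-05). It also rose in RPB1 (0.73), RPB3 (1.14), RPB6 (1.18) and RPB8 (0.97), with edgeR adjusted p of 0.011, 0.000123, 0.000251 and 0.000341, and the RPB1 call did not hold without untreated replicate 2 (0.142). RPB2 had 11.9 and 11.6 CPM with IAA, against 12.1 and 18.9 CPM untreated (edgeR adjusted p = 0.174), RPB4 13.1 and 12.3 CPM, against 18.2 and 22.7 CPM (adjusted p = 0.0918), and WT 4.79 and 5.56 CPM, against 7.26 and 5.50 CPM. These 3 did not pass. Hist1h2bp reached 10.3 and 7.48 CPM in RPB8 with IAA, against 0.524 and 0.361 CPM untreated (4.26 ± 0.55, edgeR adjusted p = 5.15e-09), and in RPB1 26 and 26 counts, against 1 and 1, a ratio of 24.0 (counting interval 6.33 to 204). Hist1h2bj rose in RPB2 to 4.76 and 8.39 CPM with IAA, against 0.979 and 1.33 CPM untreated (2.46, edgeR adjusted p = 1.05e-05). In RPB3 it fell to 0.468 and 0.647 CPM, against 1.59 and 1.54 CPM (−1.45, edgeR adjusted p = 0.0425), a call lost without any 1 of the 4 libraries (adjusted p 0.0783 to 0.173). Hist1h2bk rose in RPB2 (2.86, edgeR adjusted p = 0.00212) and fell in RPB3 (−1.56, adjusted p = 0.0302), and the RPB3 call was lost without untreated replicate 1 (0.394) or IAA replicate 2 (0.229).

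The H3 genes were higher with IAA in some lines and not in others. Their sum in RPB6 was 31.1 and 28.0 CPM with IAA, against 3.22 and 4.56 CPM untreated, and in RPB2 22.4 and 29.8 CPM, against 5.68 and 5.32 CPM. In RPB1 it was 5.81 and 6.36 CPM with IAA, within the 7.81 and 4.41 CPM of untreated cells, in RPB3 5.31 and 5.50 CPM, against 7.07 and 7.54 CPM (log2 ratio −0.43, but 0.39 on mitochondrial counts), in RPB7 5.14 and 3.56 CPM, against 6.42 and 10.4 CPM, and in WT 2.79 and 4.74 CPM, against 9.38 and 6.57 CPM. H3 genes thus held 18.8% of the member counts in RPB6 with IAA, against 11.7% untreated, but 5.70% in RPB1 with IAA, against 16.4% untreated, and 4.41% in RPB7, against 13.2%. Of the 5 tested, 5 rose in RPB6, 3 in RPB2 and 1 in each of RPB5, RPB8 and RPB10, while 1 fell in RPB3 and 1 in RPB7. The RPB6 tally includes Hist1h3a and Hist1h3d, which passed the filter on low counts only through RPB6 with IAA. That tally thus describes the tested H3 genes only.

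Hist1h3c (chr13:23744973-23745602, minus strand), the most abundant H3 gene, rose in RPB2 to 6.66 and 10.7 CPM with IAA, against 0.783 and 1.63 CPM untreated (log2 fold change 2.77 ± 0.45 SE, edgeR adjusted p = 6.85e-07), and in RPB6 to 7.29 and 5.06 CPM, against 0.717 and 1.18 CPM (2.66 ± 0.48, adjusted p = 4.95e-06). In RPB3 it fell to 0.468 and 0.970 CPM, against 2.83 and 1.88 CPM (−1.68 ± 0.55, edgeR adjusted p = 0.01), a call lost without untreated replicate 1 (0.114) or IAA replicate 1 (0.112). In RPB1 its groups overlapped, at 1.16 and 2.06 CPM with IAA and 3.20 and 0.840 CPM untreated. Hist1h3h also rose in RPB2 to 5.23 and 6.06 CPM, against 1.18 and 1.48 CPM (edgeR adjusted p = 0.00029), and in RPB6 to 2.98 and 4.73 CPM, against 0.537 and 1.01 CPM (adjusted p = 0.000391). Hist1h3a rose in RPB6 to 5.63 and 4.05 CPM, against 0.358 and 0.507 CPM (3.41, edgeR adjusted p = 4.33e-06). That IAA group alone let Hist1h3a pass the filter on low counts, so its RPB6 p-value is a description only. In RPB7 it had 1 and 0 counts with IAA, against 3 and 8 untreated (edgeR adjusted p = 0.0217), a call lost without untreated replicate 2 (0.271) or IAA replicate 2 (0.213). Hist1h3d (chr13:23575763-23577011, plus strand), whose model has a 3′ UTR of 799 bases, had 15 and 15 counts in RPB6 with IAA, against 0 and 1 untreated, a ratio of 57.7 with a counting interval of 9.59 to 2.35e+03 (edgeR adjusted p = 2.28e-07), and passed in no other line. Hist1h3g rose in RPB6 to 4.64 and 2.70 CPM, against 0.537 and 0.338 CPM (3.01, edgeR adjusted p = 2.49e-05), and in RPB8 to 3.72 and 5.21 CPM, against 1.4 and 1.62 CPM (1.54, adjusted p = 0.00248, and 0.0527 without IAA replicate 2).

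The H4 genes as a sum stood at 42.1 and 46.6 CPM in RPB6 with IAA, against 7.17 and 10.3 CPM untreated, at 30.0 and 28.3 CPM in RPB8, against 6.12 and 5.96 CPM, and at 28.9 and 26.6 CPM in RPB5, against 4.72 and 8.58 CPM. RPB7 had 11.2 and 8.59 CPM, against 12.3 and 18.8 CPM, and WT 4.39 and 2.89 CPM, against 7.08 and 5.86 CPM. Of the 8 tested, 7 rose in RPB6, 5 in RPB2 and RPB5, 4 in RPB1 and RPB8, 1 in each of RPB3, RPB10 and RPB11, and 2 fell in RPB7. Hist1h4a and Hist1h4d passed the filter on low counts only through RPB6 with IAA, so the RPB6 tally describes the tested H4 genes only. Hist1h4i (chr13:22040636-22041362, minus strand), the most abundant of them, passed in 9 lines. It rose to 16.5 and 15.7 CPM in RPB5 with IAA, against 2.46 and 4.53 CPM untreated (log2 fold change 2.15 ± 0.26 SE, edgeR adjusted p = 1.01e-09), to 15.2 and 13.3 CPM in RPB8, against 2.80 and 3.25 CPM (2.23, adjusted p = 4.28e-09), and to 12.8 and 9.95 CPM in RPB11, against 2.45 and 3.68 CPM (1.86 ± 0.27, adjusted p = 8.22e-07). These groups do not overlap. It also rose in RPB2 (1.74), RPB3 (1.69), RPB6 (1.35), RPB1 (1.08) and RPB10 (1.00), with edgeR adjusted p of 6.02e-07, 1.83e-07, 1.88e-05, 0.00152 and 0.000413. In RPB7 it fell to 5.69 and 3.56 CPM, against 7.23 and 9.92 CPM (−0.90 ± 0.26, edgeR adjusted p = 0.00403), a call lost without untreated replicate 2 (0.0767) or IAA replicate 2 (0.164). WT had 2.99 and 2.06 CPM with IAA, against 3.54 and 2.13 CPM untreated.

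Other H4 genes were counted in fewer lines. Hist4h4 (chr6:136801553-136804415, minus strand), the single Hist4 gene, rose in RPB6 to 5.30 and 4.73 CPM with IAA, against 1.07 and 0.338 CPM untreated (log2 fold change 2.81, edgeR adjusted p = 3.59e-05). In RPB1 its ratio was 16.2 with a counting interval of 4.16 to 139 (edgeR adjusted p = 2.36e-05), and in RPB8 13.1 with an interval of 3.97 to 68.3. Hist1h4b had 5 and 9 counts in RPB2 with IAA, against 0 and 3 untreated, a ratio of 13 (interval 3.64 to 70.8; edgeR adjusted p = 0.000467). In RPB7 it had 0 and 2 counts, against 6 and 11 (edgeR adjusted p = 0.0153), a call lost without untreated replicate 2 (0.153) or IAA replicate 1 (0.128). Hist1h4d rose in RPB6 (3.08, edgeR adjusted p = 0.000211) and in RPB2 (2.09, adjusted p = 0.0223), the RPB2 call being lost without any 1 of its 4 libraries (adjusted p 0.0506 to 0.126). RPB6 with IAA alone let Hist1h4d pass the filter on low counts, so its RPB6 p-value is a description only. The next 3 genes lie outside the rule for named genes and were chosen after their values were seen. Hist1h4a had 19 and 16 counts in RPB6 with IAA, against 2 and 1 untreated, a ratio of 22.4 (7.07 to 114), and was called in no other line. Hist1h4k in RPB5 and Hist2h4 in RPB8 had no count in the untreated libraries, and with the limit of 3 counts over that group they were at least 4.99-fold and at least 6.85-fold higher with IAA.

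**Figure D3:**
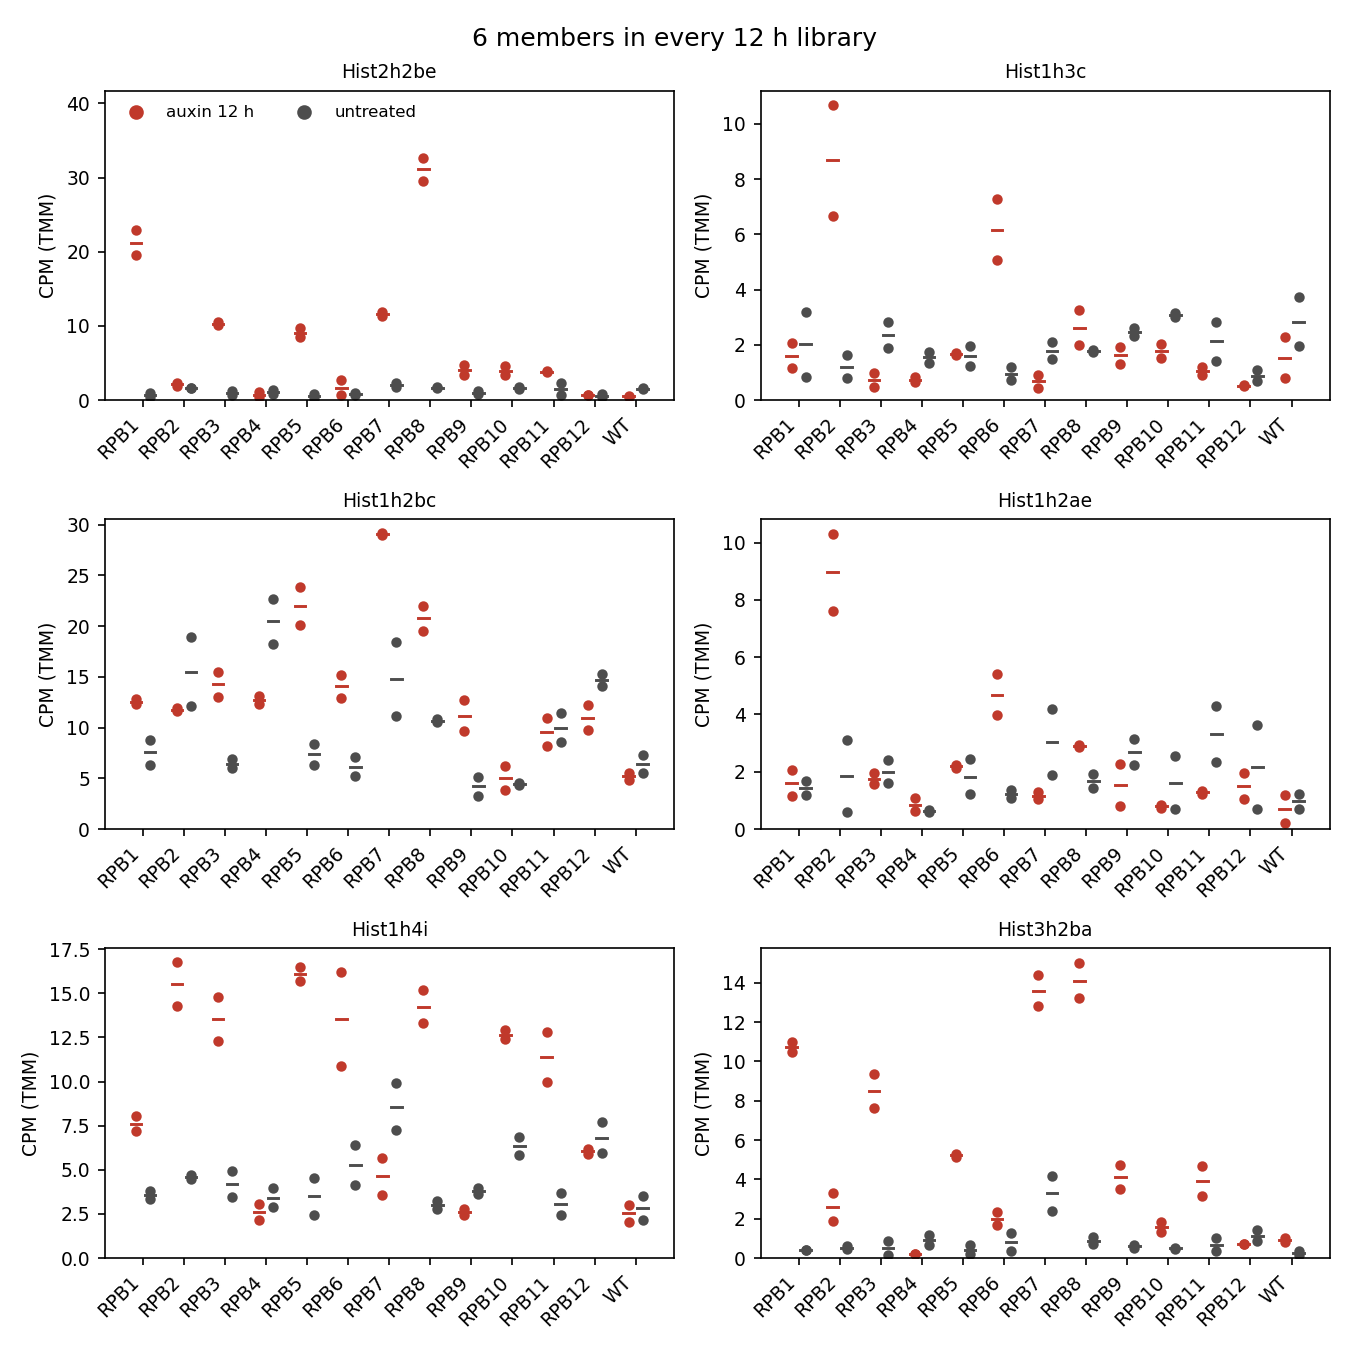
CPM of Hist2h2be, Hist1h3c, Hist1h2bc, Hist1h2ae, Hist1h4i and Hist3h2ba in every 12 h library, with IAA left of untreated in each line and WT last; points are libraries and bars are means of 2. Hist2h2be and Hist3h2ba are high with IAA in RPB1, RPB3, RPB5, RPB7 and RPB8 and low in RPB2 and RPB6, where Hist1h3c and Hist1h2ae are at their highest.

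Tailed transcripts are known, mostly from differentiated cells, for 9 of these genes, of which 8 are in the table: Hist1h1c, Hist1h2bc, Hist2h2be, Hist1h2ac, Hist2h2aa1, Hist3h2a, Hist3h2ba and Hist4h4. Their sum and that of the other 59 members moved differently between lines. In RPB1 the tailed members had 58.9 and 56.5 CPM with IAA, against 15.0 and 9.86 CPM untreated (log2 ratio 2.21), and the other 59 had 46.5 and 51.8 CPM, against 24.2 and 25.6 CPM (0.98). In RPB7 the tailed members had 67.5 and 67.1 CPM, against 23.4 and 34.1 CPM (1.23), and the other 59 had 32.3 and 27.1 CPM, against 26.9 and 43.0 CPM, with overlapping groups. In RPB9 the tailed members had 25.0 and 23.1 CPM, against 9.12 and 7.63 CPM (1.52), and the other 59 had 29.1 and 24.2 CPM, against 30.0 and 27.6 CPM, again with overlap. In RPB2 and RPB6 the ratio was instead lower for the tailed members than for the other 59, as it was by less in RPB4 (−0.44 against −0.30) and RPB12 (−0.15 against −0.14). RPB2 had 30.9 and 30.3 CPM of tailed members with IAA, against 18.8 and 28.1 CPM untreated (0.38, but −0.47 on total and −1.82 on mitochondrial counts), beside 98.9 and 118 CPM of the other 59, against 20.8 and 27.9 CPM (2.16). RPB6 had 35.1 and 46.9 CPM of tailed members, against 12.0 and 14.0 CPM (1.66, but −0.31 on mitochondrial counts), beside 114 and 118 CPM of the others, against 17.6 and 23.0 CPM (2.51). In RPB5 and RPB8 both groups were higher, with log2 ratios of 2.18 and 2.17 for the tailed members and 1.48 and 1.79 for the others, and in WT both were lower, at −0.36 and −0.87.

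Tailed members accordingly held 54.0% of the member counts in RPB1 with IAA, against 33.4% untreated, 53.1% in RPB3, against 34.1%, 69.6% in RPB7, against 45.3%, and 47.5% in RPB9, against 22.6%, but 22.0% in RPB2, against 49.2%, and 26% in RPB6, against 39.1%. In WT they held 36.8% with IAA, against 29.0% untreated. The split appeared within 1 class as well. Among the H2B genes, the log2 ratio was 2.36 for tailed and 1.17 for other members in RPB1, and 1.73 and 0.19 in RPB9, while it was −0.10 and 2.33 in RPB2 and 1.18 and 2.40 in RPB6. Of the 6 tailed members tested, 6 rose in RPB5 and RPB8 (31.0% and 31.5% of all genes) and 5 in RPB1 and RPB3 (35.8% and 24.4%). In RPB6, RPB7 and RPB9 4 rose (27.3%, 20.2% and 16.8%), in RPB10 3 (18.2%), and in RPB2 and RPB11 2 (27.9% and 10.6%). None fell, where 13.1% (RPB11) to 34.0% (RPB2) of all genes did. A division by annotation in place of literature, added after the data were seen, gave a like order: members whose 3′ UTR model is longer than 100 bases against those with up to 100 had log2 ratios of 1.80 and 0.68 for RPB1, of 1.44 and −0.24 for RPB3 and of 0.77 and −0.12 for RPB7, but of 1.20 and 2.29 for RPB2 and of 2.14 and 2.48 for RPB6. Every tailed member has a model longer than 100 bases, so the 2 divisions overlap and the like order is in part built in. In RPB7 with IAA the tailed members gave 821 of the 1017 counts of the longer-model group. The difference between tailed and other members was not tested, because the members were chosen with these results known.

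**Figure D4:**
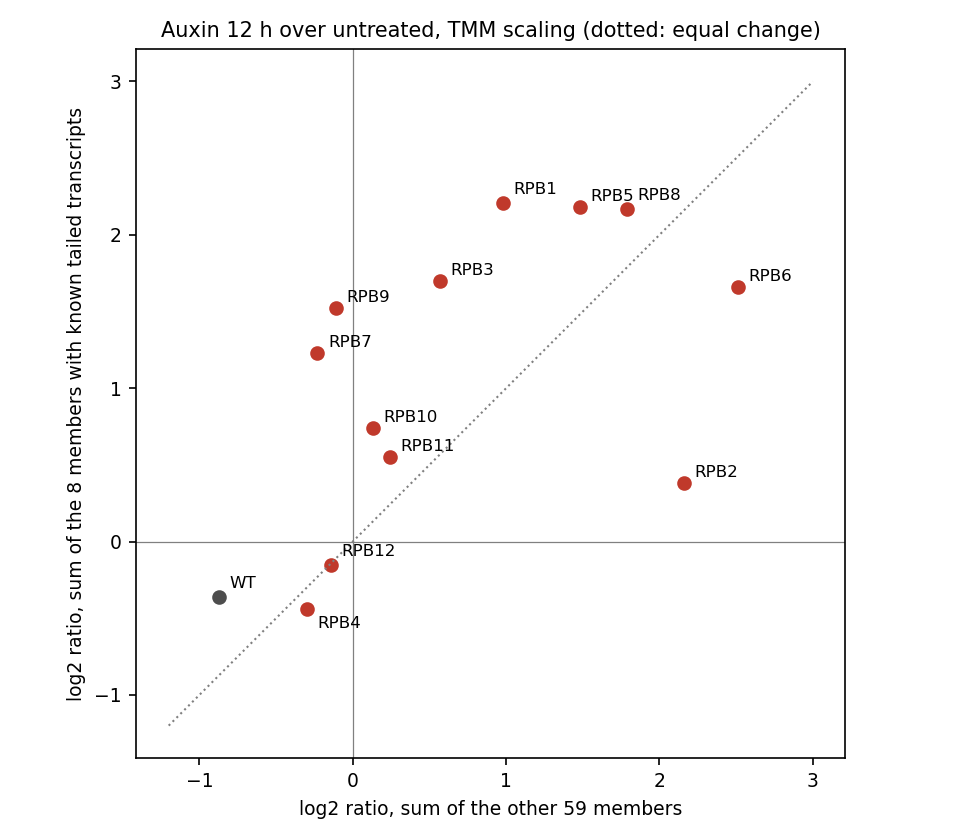
Log2 ratio of mean CPM (12 h of IAA over untreated) of the summed other 59 members (horizontal axis) and of the summed 8 members with known tailed transcripts (vertical axis), with 1 point per line. RPB2 and RPB6 lie farthest below the diagonal, and RPB4 and RPB12 lie closer below it. All other lines lie above it, WT among them, although WT is negative on both axes.

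RPB2 and RPB6, the lines in which members outside the tailed group stood highest, also differed from the others in the make-up of the libraries. TMM factors were 0.541 and 0.539 in RPB2 with IAA and 0.668 and 0.658 in RPB6 with IAA, against 0.906 to 1.17 in all other 12 h libraries. Of 4 tested genes on a list of other RNAs without a poly(A) tail, 3 rose and 1 fell in RPB6 (27.3% and 33.4% of all genes), and 2 rose and 2 fell in RPB2 (27.9% and 34.0%). Whether every form of these RNAs, Neat1 and Malat1 among them, lacks a tail in these cells was not tested. Rn7sk, the 7SK RNA, a product of RNA polymerase III, had 164 and 159 CPM in RPB6 with IAA, against 0.179 and 1.01 CPM untreated (edgeR adjusted p = 6.81e-25), and 13.8 and 9.79 CPM in RPB2 with IAA, against 0.196 and 0 CPM (adjusted p = 1.35e-11). RPB5 had 8.75 and 7.29 CPM of it with IAA, against 0.411 and 0.324 CPM untreated, while no other 12 h library exceeded 2.60 CPM. Scarna2, a small Cajal body RNA, had 16.2 and 14.5 CPM in RPB6 with IAA and no count untreated. RPB8, whose histone sum was nearly as far above untreated as that of RPB6, had 1.72 and 2.60 CPM of Rn7sk with IAA, against 1.75 and 1.26 CPM untreated. Malat1, on the same list and chosen after its values were seen, had 602 and 565 CPM in RPB6 with IAA, against 418 and 413 CPM untreated, but 148 and 132 CPM in RPB2 with IAA, against 269 and 205 CPM. Neat1 fell in both, at 40.4 and 39.8 CPM in RPB6, against 69.0 and 69.6 CPM, and at 4.28 and 3.73 CPM in RPB2, against 45.2 and 37.5 CPM. The part of these values in the histone result was not tested.

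The size of the summed change depended on the scaling, which moved all genes together. Scaled to all counts in place of TMM, the log2 ratio of the sum was 0.69 in RPB2 and 1.62 in RPB6, and scaled to mitochondrial counts it was −0.66 in RPB2, 0.27 in RPB6, 0.46 in RPB8, 0.95 in RPB1 and 1.18 in RPB5. The median of all genes shifted by as much: on total counts it was −1.03 in RPB2 and −0.75 in RPB6, and on mitochondrial counts −2.32, −2.08, −1.43 in RPB8, −0.47 in RPB1 and −0.46 in RPB5. Relative to the median of all genes, the sum stood above it by 1.73, 1.72 and 1.66 in RPB2 under TMM, total and mitochondrial scaling, by 2.37, 2.37 and 2.35 in RPB6, by 1.94, 1.93 and 1.89 in RPB8, by 1.67, 1.67 and 1.64 in RPB5, by 1.42, 1.41 and 1.42 in RPB1, and by 1.00, 1.00 and 1.05 in RPB3. In WT its distance from the median was −0.70, −0.68 and −0.69. On mitochondrial counts the H4 sum of RPB2 (−0.29), its H1 sum (−0.69), the H2A and H3 sums of RPB8 (−0.21 and −0.69), and single members such as Hist1h1c in RPB2 and RPB6 and Hist1h4i in both also changed sign. The statements above on higher or lower histone RNA, in RPB2 and in every other line, are thus relative to other genes of the same libraries. No scaling here used reads of the added Drosophila cells. The mitochondrial share of the 2 RPB3 IAA libraries differed, at 0.534% and 1.72%.

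**Figure D5:**
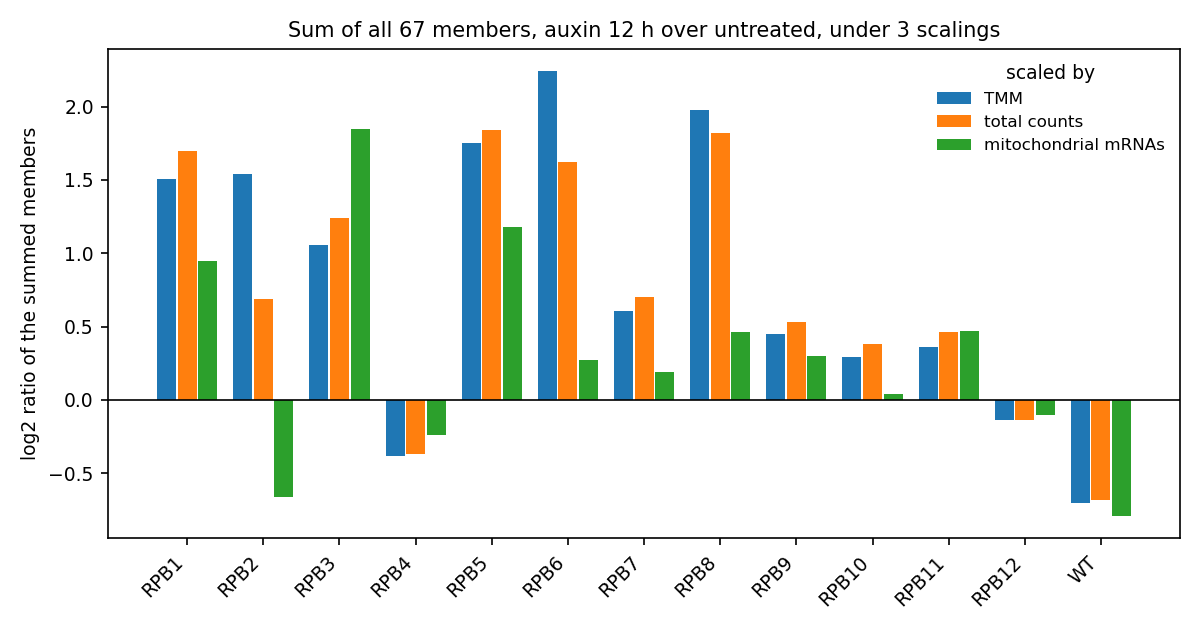
Log2 ratio of the summed 67 members (12 h of IAA over untreated) in each line under TMM, total-count and mitochondrial scaling. The median of all genes is not drawn. In that order of scaling the bars stand at 2.24, 1.62 and 0.27 in RPB6 and at 1.54, 0.69 and −0.66 in RPB2.

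The response of each degron line was then set against that of WT by testing the difference of the 2 responses, which share the WT libraries in all 12 lines. In RPB6, 17 of the 26 tested members rose beyond WT, where 23.9% of all genes did, in RPB2 14 (24.3%), in RPB8 10 (23.9%), in RPB5 9 (20.0%), in RPB1 7 (23.9%) and in RPB3 4 (12.9%). RPB7, RPB9 and RPB11 had 2 each (11.4%, 8.07% and 4.68% of all genes) and RPB10 had 1 (10.9%). None passed in RPB4 or RPB12, where 2 members each had an unadjusted p under 0.05, and none fell beyond WT in any line. In RPB6 these were 5 of the 5 tested H3 genes and 6 of the 8 H4 genes, and in RPB2 3 of 5 and 5 of 8, but without untreated WT replicate 1 they were 3 and 2 in RPB6 and 1 and 3 in RPB2. The H3 genes Hist1h3a and Hist1h3d and the H4 genes Hist1h4a and Hist1h4d passed the filter on low counts only through RPB6 with IAA. The RPB6 tallies of H3 and H4 genes thus support nothing. In RPB2 the 14 members include Hist1h2ag, which passed that filter only through RPB2 with IAA. Hist2h2be rose beyond WT in 9 lines, by a log2 difference of 6.37 ± 0.75 in RPB1 (SE, edgeR adjusted p = 1.43e-09), 5.78 in RPB5, 5.72 in RPB8, 4.93 in RPB3, 4.03 in RPB7, 3.49 in RPB9, 2.98 in RPB11, 2.81 in RPB10 and 2.45 in RPB6. The RPB6 value was lost without WT IAA replicate 2 (edgeR adjusted p = 0.0639) or RPB6 IAA replicate 2 (1.09, adjusted p = 0.544), and the other 8 held without any 1 of the 8 libraries. Hist1h2bc and Hist1h4i passed in 7 lines each, and in 3 lines each without untreated WT replicate 1. The counts by line rest in part on that library too: without it (its member sum was 41.6 CPM, against 31.8 CPM in its counterpart) they were 10 in RPB6, 8 in RPB2, 7 in RPB8, 6 in RPB5, 2 in RPB1 and RPB9, and 1 in RPB3, RPB7, RPB10 and RPB11. Without untreated RPB1 replicate 2 the RPB1 count was 4, and without untreated WT replicate 2 the RPB10 count was 3.

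After 1 h of IAA few histone genes passed the test, while the median log2 fold change of the 13 tested members was 0.79 in RPB1, 0.03 in RPB3 and 0.38 in RPB6, beside all-gene medians of 0.01, 0 and 0. The member sum was 40.8 and 40.6 CPM in RPB1 at 1 h, against 29.0 and 28.6 CPM at 0 h (log2 ratio 0.50), 36.1 and 47.3 CPM in RPB3, against 37.4 and 40.1 CPM, and 62.8 and 60.5 CPM in RPB6, against 53.8 and 59.4 CPM. The groups overlap in RPB3 only. In RPB1, 1 of the 13 tested members rose and none fell, where 11.0% of all genes rose and 13.9% fell. That gene was Hist1h2bj, with 1.60 and 3.26 CPM at 1 h, against 1.01 and 0.951 CPM at 0 h (log2 fold change 1.27 ± 0.41 SE, edgeR adjusted p = 0.0302), and the call did not hold without 0 h replicate 1 (0.137), 0 h replicate 2 (0.112) or 1 h replicate 2 (0.382). No member passed in RPB3 or RPB6, where 0.358% and 1.54% of all genes were called in either direction and 2 members each had an unadjusted p under 0.05. DESeq2 called 0 members in all 3 lines.

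In RPB1 the 8 tailed members had 10.6 and 10.6 CPM at 1 h, against 12.0 and 12.0 CPM at 0 h, and the other 59 had 30.3 and 30.0 CPM, against 17.0 and 16.6 CPM, a ratio of 1.79. By class, H3 had 9.29 and 9.77 CPM at 1 h, against 5.62 and 6.66 CPM at 0 h, H2A 5.49 and 6.05 CPM, against 3.26 and 2.26 CPM, and H4 7.59 and 4.88 CPM, against 3.60 and 3.68 CPM. None of these 3 classes overlapped between 1 h and 0 h. The H1 sum had a log2 ratio of 0.11, which was −0.26 without 1 h replicate 2 and −0.07 without 0 h replicate 2. H2B held 34.8% of the member counts at 1 h, against 40.3% at 0 h. Hist2h2be had 2.70 and 3.02 CPM at 1 h, against 2.92 and 2.26 CPM at 0 h, and Hist1h2bc 4.79 and 3.14 CPM, against 5.40 and 6.06 CPM (edgeR adjusted p = 0.103). The 0 h and 1 h libraries were compared only with each other, because their library type is not given and cannot be told apart from the set they belong to.

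Without IAA, few members were called different between the degron lines and WT. Over the 12 lines, 21 of the 312 member tests came out higher than untreated WT (6.73%) and 5 lower (1.60%), below the 14.7% and 14.6% of all gene tests, and all 12 comparisons share the 2 WT libraries. Members had few counts, at which a difference is less often called, so the lower shares do not show smaller differences. RPB7 had 6 higher members, where 26.9% of all genes were higher. Hist1h2bc was higher in untreated RPB4, at 18.2 and 22.7 CPM, against 7.26 and 5.50 CPM in WT (log2 fold change 1.68, edgeR adjusted p = 2.28e-07), and also in RPB2, RPB7, RPB8 and RPB12. Hist1h1c was higher in RPB12, at 9.60 and 7.91 CPM, against 1.42 and 2.13 CPM in WT (2.28 ± 0.33 SE, edgeR adjusted p = 2.48e-07), and also in RPB2, RPB3, RPB4, RPB6, RPB7 and RPB8. Hist3h2a had 16 and 17 counts in untreated RPB7 and none in WT, at least 9.39-fold with the limit of 3 counts over the group, and its neighbour Hist3h2ba had 12.0 times the WT level there (counting interval 3.82 to 60.3). Hist1h3c was lower in RPB2, RPB6 and RPB12 (log2 fold change −1.16, −1.55 and −1.68), and all 3 calls were lost without untreated WT replicate 1 (edgeR adjusted p = 0.494, 0.317 and 0.212). Of Hist1h1c's calls, RPB4 and RPB6 were lost without untreated WT replicate 1 (0.108 and 0.116) and RPB2 without untreated RPB2 replicate 2 (0.15), and Hist1h2bc's in RPB8 was lost without WT replicate 2 (0.259) or either untreated RPB8 library (0.113 and 0.131).

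Genes of the surrounding pathways were read from lists of histone mRNA synthesis factors, histone chaperones, replication genes and variant histones. Of 22 genes of histone transcription and 3′ end formation, 6 rose and 12 fell in RPB6, 7 rose and 14 fell in RPB2, 7 rose and 10 fell in RPB1, and 9 rose and 9 fell in RPB8, with none called in RPB4, RPB12 or WT. All genes rose and fell in 27.3% and 33.4% (RPB6), 27.9% and 34.0% (RPB2), 35.8% and 30.5% (RPB1), and 31.5% and 30.2% (RPB8). The median log2 fold change was −0.74 in RPB6, −1.06 in RPB2 and −0.16 in RPB1, beside all-gene medians of −0.13, −0.19 and 0.09. Slbp averaged 39.8 ± 4.91 CPM in RPB2 with IAA and 169 ± 12.6 CPM untreated (SD, n = 2; edgeR adjusted p = 4.01e-22), but 341 ± 24.9 CPM in RPB1 with IAA and 183 ± 4.78 CPM untreated (adjusted p = 9.26e-14). Eri1, an exonuclease that trims the end of histone mRNA, fell in RPB6 to 15.9 ± 0.494 CPM, against 94.2 ± 0.0646 CPM (edgeR adjusted p = 8.45e-21), and Ncbp2, a subunit of the cap-binding complex, rose to 240 ± 0.879 CPM, against 75.3 ± 1.5 CPM (adjusted p = 2.08e-21). Hinfp, a transcription factor of H4 genes, rose in RPB1 to 96.9 ± 8.46 CPM, against 32.0 ± 6.42 CPM (edgeR adjusted p = 1.24e-14). At 1 h in RPB1, 2 of these genes rose and 9 fell, where 11.0% and 13.9% of all genes did, among them Npat, at 81.6 ± 1.87 CPM, against 133 ± 5.99 CPM at 0 h (edgeR adjusted p = 0.000108).

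Of 20 S-phase and replication genes, 13 rose and 6 fell in both RPB2 and RPB6 (median log2 fold change 0.51 and 0.58), whereas 2 rose and 16 fell in RPB1 (−0.66), 3 and 14 in RPB3, 3 and 13 in RPB5, and 4 and 12 in RPB8 (−0.50). In RPB7 5 rose and 7 fell, RPB9 had 2 and 10, RPB10 1 and 11, and RPB11 2 and 8, while 1 fell in RPB12, 3 in WT and none passed in RPB4. All-gene medians were −0.19 in RPB2, −0.13 in RPB6, 0.09 in RPB1 and 0.04 in RPB8, and the all-gene shares are those given with the member calls. As log2 ratios of group means, the median of these genes was 0.51 in RPB2 and 0.58 in RPB6 on TMM, but −0.35 and −0.05 on total counts, where all genes had −1.03 and −0.75. Mcm4, a helicase subunit, averaged 952 CPM in RPB6 with IAA and 393 CPM untreated, while Cdt1, a licensing factor, averaged 29.0 ± 9.06 CPM with IAA and 318 ± 0.53 CPM untreated (SD, n = 2; edgeR adjusted p = 9.13e-27). Pola1, a subunit of DNA polymerase alpha, fell in RPB1 to 30.2 CPM, against 137 CPM. Of 19 histone chaperones, 11 rose and 5 fell in RPB6, 10 rose and 6 fell in RPB2, and 3 rose and 15 fell in RPB1. Their median ratio was 0.57 in RPB2 and 0.53 in RPB6 on TMM, but −0.29 and −0.10 on total counts. Examples are Nap1l1 at 3110 CPM in RPB6 with IAA, against 920 CPM, and Nasp, a carrier of H3 and H4, at 460 CPM in RPB1 with IAA, against 953 CPM. Of 11 variant histones, whose mRNAs carry poly(A) tails, 10 rose and 1 fell in RPB6, 9 rose and 1 fell in RPB2, 6 rose and 3 fell in RPB8, 4 rose and 5 fell in RPB1, and 3 fell in WT. H3f3a, which encodes H3.3, averaged 1060 ± 8.89 CPM in RPB6 with IAA and 376 ± 16.1 CPM untreated (edgeR adjusted p = 1.22e-19), and H1f0, a linker histone of resting cells, 9.20 and 47.3 CPM. The median ratio of the variants was 0.64 in RPB2 and 0.87 in RPB6 on TMM, and −0.22 and 0.24 on total counts. At 1 h in RPB1, 9 of the 11 variants rose and none fell, where 11.0% and 13.9% of all genes did, among them H2afz, at 704 CPM against 482 CPM at 0 h. The directions of these lists in RPB2 and RPB6 thus hold only relative to other genes of the same libraries.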

How the data were processed

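RNA-seq counts of 64 libraries of V6.5 mouse embryonic stem cells were read from the deposited count table, in which the authors gave whole-number read counts per gene. Per the submitters' processing notes, without their order or purpose, the tools were featureCounts, STAR, Bowtie2, cutadapt 1.18, SAMtools, DESeq2 and deepTools, and the builds mm10 and dm6. The sources used here give no setting for multi-mapping reads, strand or annotation. Symbols came from GENCODE M21, which named 55154 of the 55335 gene IDs. The table has 0 rows that name no gene, and 4 columns that match no sample were not used.

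The computations used R 4.3.3, edgeR 4.0.16 and limma 3.58.1. The 52 libraries of the 12 h set and the 12 of the 0 h and 1 h set were fitted apart, with filterByExpr, TMM scaling, a factor of group, glmQLFit and glmQLFTest (two-sided), and Benjamini-Hochberg adjustment over all genes tested (threshold 0.05). The contrasts were IAA minus untreated in each line, 1 h minus 0 h, the response of a degron line minus that of WT, and untreated degron line minus untreated WT. Class sums are summed counts of all members as CPM and carry no test. Counting intervals (95%) of ratios are exact binomial intervals of the 2 counts. Libraries held 3399838 to 13281252 counts, and few of them fall on the members, which limits the precision. The scripts were tested on simulated data. Alternatives were DESeq2 1.42.0, other scalings, no filter, a fit of each line's own libraries, a replicate block, TMM without the members, sums without tailed members and leaving out each library.

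The members and lists were chosen with earlier results of these data known. Named genes are the 4 most abundant members of each class, the 2 called members with the highest and the 2 with the lowest fold change in each comparison among those with a mean of at least 1 CPM, the members with known tailed transcripts, and the 3 genes with the smallest adjusted p of each other list; a gene named outside this is said to be so. Of these lists, 22 of 24 processing genes, 19 chaperones, 20 replication genes and 11 variants were matched, and 12 of 13 RNAs listed as untailed, of which 4 were tested: 3 rose and 1 fell in RPB6 (27.3% and 33.4% of all genes), and 2 rose and 2 fell in RPB2 (27.9% and 34.0%).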

Additional observations from a re-analysis of the deposited data

Results flagged for a closer look

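The tests of a degron line's response against the WT response, which share the WT libraries, called members higher in 10 lines. Of the 26 tested members, 17 rose beyond WT in RPB6 (23.9% of all genes did), 14 in RPB2 (24.3%), 10 in RPB8 (23.9%) and 9 in RPB5 (20.0%). The number was 7 in RPB1 (23.9%), 4 in RPB3 (12.9%), 2 in each of RPB7, RPB9 and RPB11 (11.4%, 8.07% and 4.68%), and 1 in RPB10 (10.9%). These calls came from edgeR's quasi-likelihood test with Benjamini-Hochberg adjustment. Some members passed the filter on low counts only through RPB6 or RPB2 with IAA, so the counts of these 2 lines describe the tested members only. The share of members was near that of all genes in RPB1 (26.9%), RPB3 (15.4%) and RPB9 (7.69%), and below it in RPB7 (7.69%) and RPB10 (3.85%). Without untreated WT replicate 1, the 68 calls over all lines became 39.

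The members with the widest difference in each line were, as fitted log2 differences, Hist2h2be (6.37) and Hist4h4 (5.47) in RPB1, Hist1h4k (4.69) and Hist1h4b (4.63) in RPB2, and Hist2h2be (4.93) and Hist1h1d (4.67) in RPB3. In RPB5 they were Hist2h2be (5.78) and Hist4h4 (4.63), in RPB6 Hist1h3d (6.81) and Hist1h1d (6.67), and in RPB7 Hist2h2be (4.03) and Hist1h2bc (1.31). In RPB8 they were Hist1h4h (6.82) and Hist2h2be (5.72), in RPB9 Hist2h2be (3.49) and Hist1h2bc (1.69), in RPB10 Hist2h2be alone (2.81), and in RPB11 Hist2h2be (2.98) and Hist1h4i (2.02). Values for Hist1h4k, Hist1h4b, Hist4h4, Hist1h1d, Hist1h3d and Hist1h4h rest on untreated or WT groups of a few counts or none, so their size depends on the fit. Without untreated WT replicate 1, Hist1h4b in RPB2 was at 0.29 (edgeR adjusted p = 0.801), Hist1h4k in RPB2 at 4.33 (0.0602), Hist4h4 at 4.56 in RPB1 (0.162) and 3.72 in RPB5 (0.258), Hist1h1d in RPB3 at 4.43 (0.0504), Hist1h2bc in RPB7 at 1.09 (0.0725) and Hist1h4i in RPB11 at 1.61 (0.0959), none of them called. Hist1h4b in RPB2 was also lost without WT IAA replicate 1 (3.63, edgeR adjusted p = 0.0527), Hist1h4k in RPB2 without its IAA replicate 2 (2.74, 0.318), and Hist1h3d in RPB6 without untreated WT replicate 2 (5.28, 0.101). Hist4h4 in RPB5 was lost as well without WT IAA replicate 2, untreated RPB5 replicate 2 or RPB5 IAA replicate 1 (edgeR adjusted p = 0.0792, 0.0577 and 0.066). With 2 libraries in a group, no library could be tested as standing apart from its group.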

How the results depend on the processing

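Limits: the members held at most 636 counts in a 12 h library, 41 of 67 could not be tested there, and the libraries may capture tailed and untailed histone RNA unequally. Counting error, division of reads among copies and the scaling of all genes set the size of the values.

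Of the 112 member calls, all 112 kept direction and call with RLE factors and with TMM factors computed without the members, 104 without a filter, 104 with a replicate block, 100 with DESeq2, 100 with only a line's own libraries and 98 on total counts. On mitochondrial counts 53 kept their call and 11 changed sign. The called number became 3 in RPB2 (all lower), 4 in RPB6 (3 higher, 1 lower), 8 in RPB8, 0 in RPB10, 3 in RPB11 and 0 in RPB1 at 1 h, and 25 beyond WT in all. Log2 fold changes that turned there were −0.97 for Hist1h1c, −0.12 for Hist1h3h, −0.06 for Hist1h4d and −0.45 for Hist1h4i in RPB2, −0.14 for Hist1h1c, −0.02 for Hist1h2ae, −0.31 for Hist1h2ag, −0.78 for Hist1h2bc, −0.56 for Hist1h2bj and −0.61 for Hist1h4i in RPB6, and −0.54 for Hist1h2bc in RPB8; the shift of all genes under this scaling is given above. With own libraries the counts were 1 in RPB4, 4 in RPB7, 6 in RPB10 (4 higher, 2 lower) and 3 in RPB11, without a filter 3 in RPB10, 5 in RPB11 (4 higher, 1 lower) and 2 in RPB1 at 1 h, and with DESeq2 3 in RPB10 and 0 in RPB1 at 1 h. The cause was not tested.

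The log2 ratio of the sum on total counts was 1.70 in RPB1, 0.69 in RPB2, 1.24 in RPB3, 1.62 in RPB6, 1.82 in RPB8, 0.46 in RPB11 and 0.47 in RPB1 at 1 h, and with RLE factors 1.67 in RPB1. On mitochondrial counts it was 0.95 in RPB1, −0.66 in RPB2, 1.85 in RPB3, 1.18 in RPB5, 0.27 in RPB6, 0.46 in RPB8, 0.30 in RPB9, 0.04 in RPB10, 0.47 in RPB11, and 0.57 and 0.25 in RPB1 and RPB6 at 1 h. Without the tailed members it was 0.98 in RPB1, 2.16 in RPB2, 0.57 in RPB3, 2.51 in RPB6, −0.23 in RPB7, 1.79 in RPB8, −0.11 in RPB9, 0.13 in RPB10, 0.24 in RPB11, and 0.84 and 0.31 in RPB1 and RPB6 at 1 h.

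Leaving out 1 library gave 10 to 12 calls in RPB1, 11 to 14 in RPB2, 8 to 11 in RPB3, 13 to 14 in RPB5, 18 to 21 in RPB6, 5 to 10 in RPB7, 12 to 13 in RPB8, 5 in RPB9, 2 to 5 in RPB10, 3 to 4 in RPB11, 0 to 1 in RPB1 at 1 h, 39 to 72 beyond WT and 22 to 29 between untreated lines and WT. The log2 ratio of the sum ran from 1.44 to 1.58 in RPB1, 1.31 to 1.81 in RPB2, 0.98 to 1.14 in RPB3, −0.52 to −0.25 in RPB4, 1.56 to 1.97 in RPB5, 2.09 to 2.41 in RPB6, 0.33 to 0.95 in RPB7, 1.88 to 2.09 in RPB8, 0.35 to 0.54 in RPB9, 0.18 to 0.40 in RPB10, 0.32 to 0.40 in RPB11, −0.22 to −0.06 in RPB12 and −0.88 to −0.50 in WT, and at 1 h from 0.49 to 0.51 in RPB1, −0.10 to 0.29 in RPB3 and 0.05 to 0.20 in RPB6.

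The labels do not state what same-numbered libraries share. Their deviations from the group means correlated over genes at −0.16 to 0.07, which cannot tell whether they shared a culture or batch. With the replicate block the counts were 11 in RPB1, 13 in RPB2, 11 in RPB3, 14 in RPB5, 21 in RPB6, 8 in RPB7, 13 in RPB8, 5 in RPB9, 4 in RPB10, 4 in RPB11, 1 in RPB1 at 1 h, 66 beyond WT and 18 between untreated lines and WT, against 26 without it.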
